A study of Mus musculus with 3 samples.

Results

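Trem2, its adaptor Tyrobp and the kinases, phospholipase and phosphatase through which the adaptor signals were measured in cytosolic RNA of mouse macrophages. The set holds 9 genes of 55536 gene rows in the deposited tables, chosen by symbol and role with earlier results of these data known. They are the receptors Trem1 and Trem2, the adaptor Tyrobp, the SRC family kinases Lyn and Fgr, the kinases Syk and Btk, the phospholipase Plcg2 and the phosphatase Ptpn6. All 9 symbols matched 1 gene each. The RNA came from the cytosolic fraction of bone-marrow-derived macrophages of C57BL/6J mice, cells grown in culture from marrow precursors, which had received Lipid A at 100 ng/ml for 20 min. Lipid A anchors bacterial lipopolysaccharide in its membrane and is recognised by Tlr4. Total RNA was depleted of ribosomal RNA, and 3 libraries of this 1 condition were sequenced. They carry biological replicate numbers and share 1 donor identifier, and neither age nor sex was recorded. With no untreated cells, no other time and no nuclear fraction analysed here, the values are levels and give no response to Lipid A.

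Trem2 is a surface receptor for lipids, lipoproteins and cell debris that has no signalling motif of its own. It pairs through its membrane segment with Tyrobp, also called DAP12, whose tail carries an immunoreceptor tyrosine-based activation motif (ITAM), a pair of tyrosines that SRC family kinases phosphorylate. Syk docks on the phosphorylated pair and activates Btk and Plcg2, which raise calcium and diacylglycerol, while Ptpn6, also called SHP-1, is recruited by inhibitory receptors and removes phosphate from the same proteins. In mouse bone-marrow-derived macrophages Trem2 and Tyrobp are known for restraining cytokine release after Toll-like receptor stimulation, and Trem1 is known for amplifying it.

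The ITAM of Tyrobp is shown with that of Fcer1g, the adaptor of Fc receptors, because these were the most abundant ITAM adaptors in the libraries. Each stretch is the coding sequence of the motif, 45 bases spread over 2 exons, read from GENCODE M21 transcripts on mm10. Capitals mark the codons of the tyrosine and the leucine of each box.
Tyrobp ITAM: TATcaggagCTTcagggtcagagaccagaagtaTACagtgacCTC
Fcer1g ITAM: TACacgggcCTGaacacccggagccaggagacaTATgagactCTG
The Tyrobp tyrosines were codons 92 and 103 of 114, and those of Fcer1g were codons 65 and 76 of 86. In both genes 7 codons lay between the boxes. The Tyrobp stretch spans chr7:30415670-30417382 on the plus strand and the Fcer1g stretch chr1:171229889-171230072 on the minus strand, each including an intron.

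Levels are given in TPM, the abundance of a transcript per length, scaled to a fixed total over all rows of a library. Expected counts summed to 27392626, 81597761 and 37176950 over the gene tables of replicates 1, 2 and 3. Nuclear protein-coding genes took 25.0%, 22.0% and 19.7% of the TPM in the same order, so the mRNAs of replicate 3 are lowered together. Rescaled TPM, which sets the total of nuclear protein-coding genes equal in all libraries, is therefore given beside TPM where it matters. A further difference between the libraries was Malat1, an RNA retained in the nucleus, at 1439, 1127 and 3884 rescaled TPM in replicates 1, 2 and 3. All 6 macrophage markers, among them Lyz2, Cd68, Csf1r and Adgre1, were at 1 TPM or more in every library. None of 6 B cell, 7 T and NK cell, 4 mast cell, 6 osteoclast, 5 dendritic cell and 3 platelet markers reached that limit in every library, and Cd3g was listed at 0. Of 7 neutrophil markers, S100a9, S100a8 and Ngp reached it, and the summed TPM of the 7 was 18.4, 27.0 and 26.7. Ly6g was listed at 0 in replicates 1 and 2 and at 0.02 TPM in replicate 3.

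Of the 9 genes, 7 reached 1 TPM in each of the 3 libraries, the limit for calling a gene detected, and 40.5% of the 22015 nuclear protein-coding genes did so. The exceptions were Fgr and Trem1. The share of 40.5% is also the background for every count of detected list genes below. The 9 genes summed to 1421, 1221 and 1108 TPM in replicates 1, 2 and 3, and Tyrobp and Trem2 together made up 86.7% ± 0.35 of that sum (SD, n = 3). The receptor and its adaptor were thus the abundant end of the set, and the enzymes below them were lower.

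**Figure D1:**
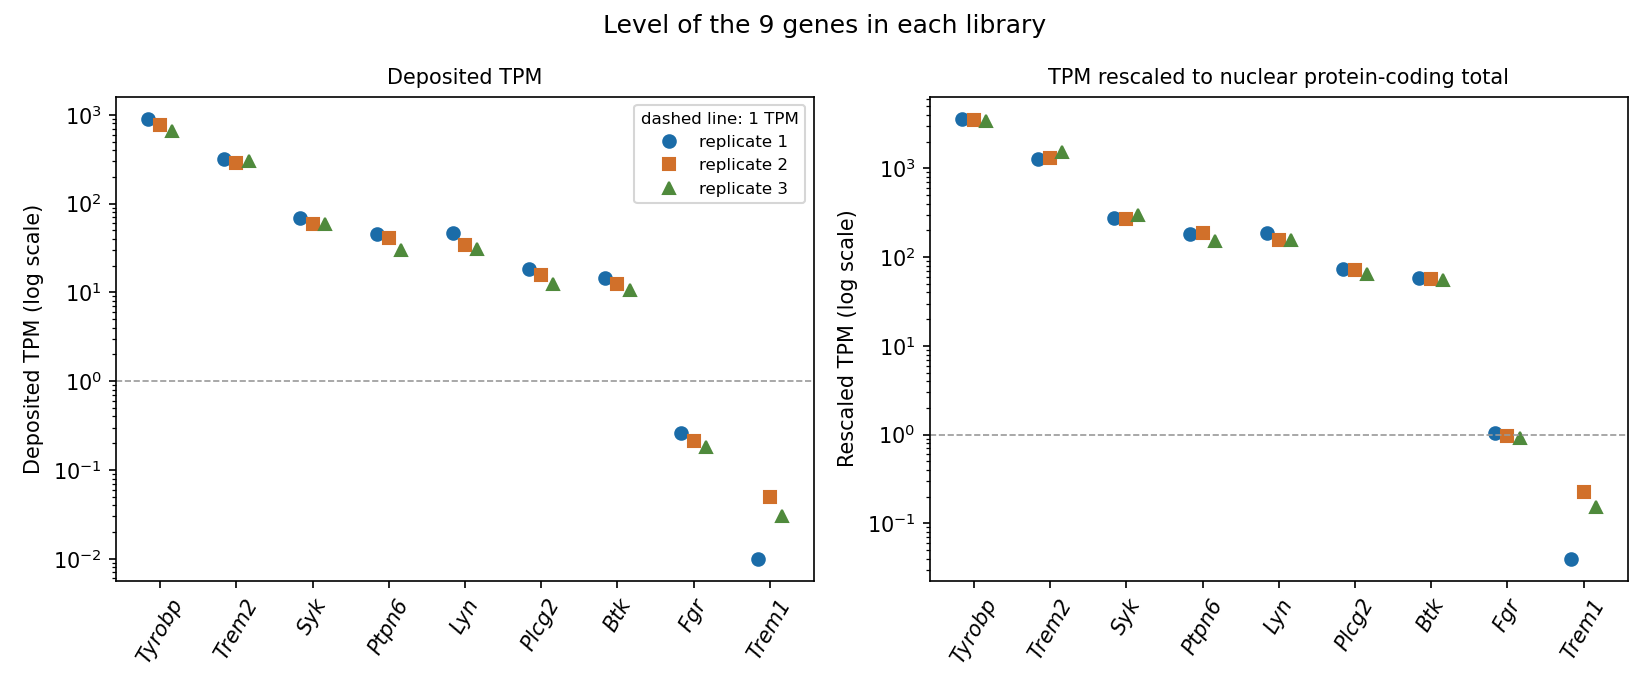
Level of each gene in each library, on log scales. The left panel plots the deposited TPM and the right panel the TPM rescaled to the nuclear protein-coding total, and the dashed line is 1. Points are the 3 libraries. Tyrobp and Trem2 stand above the kinases, and Fgr and Trem1 lie below 1 TPM in every library.

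Tyrobp, the adaptor, had 910.3, 774 and 667 TPM in replicates 1, 2 and 3, on 16353, 47481 and 19332 expected counts. It ranked 22 among nuclear protein-coding genes. Replicate 1 was highest and replicate 3 lowest in TPM, while the rescaled values of 3646, 3517 and 3393 had a coefficient of variation of 3.59%.

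Trem2 had 317, 285 and 299 TPM in replicates 1, 2 and 3, on 14049, 41949 and 21462 expected counts, and ranked 76. Its rescaled values were 1271, 1294 and 1520.3, with replicate 3 the highest. Tyrobp exceeded Trem2 in each library, by a log2 ratio of 1.37 ± 0.19 (SD, n = 3), or 2.59-fold. The difference was 1.52 in replicate 1, 1.44 in replicate 2 and 1.16 in replicate 3, so it was larger than the spread between libraries.

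Trem1, a receptor of the same gene cluster on chromosome 17 as Trem2, was at the edge of detection. It had 0.01, 0.05 and 0.03 TPM in replicates 1, 2 and 3, on 2, 21 and 6 counts, where Trem2 had 317, 285 and 299 TPM. A count of 0 allows up to 3 counts, which is 0.110, 0.0368 and 0.0808 CPM, the share of a library's counts on a common scale, in the same libraries. Trem1 lay under that limit in replicate 1, at 0.0733 CPM (exact 95% Poisson interval 0.00888 to 0.265), and above it in replicates 2 and 3, at 0.258 CPM (0.159 to 0.394) and 0.162 CPM (0.0593 to 0.352). These intervals cover counting error only. The log2 ratio of Trem1 over Trem2 was -13.57 ± 1.26 (SD, n = 3), a value whose size rests on those few counts. In a bulk sample, fewer cells with an RNA and less of it per cell cannot be told apart.

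The sequences before the start sites of these receptors are shown because both belong to 1 gene cluster and their levels lay far apart. Each is the 250 bases before the RefSeq start on GRCm38.p6, plus strand, at chr17:48232489-48232738 for Trem1 and chr17:48346151-48346400 for Trem2. Capitals mark matches to GAGGAA, the core of the purine box that PU.1 binds, searched with its reverse complement TTCCTC. They also mark TGANTCA, a loosened form of the AP-1 motif that allows any base at its middle, searched on both strands.
Trem1 promoter: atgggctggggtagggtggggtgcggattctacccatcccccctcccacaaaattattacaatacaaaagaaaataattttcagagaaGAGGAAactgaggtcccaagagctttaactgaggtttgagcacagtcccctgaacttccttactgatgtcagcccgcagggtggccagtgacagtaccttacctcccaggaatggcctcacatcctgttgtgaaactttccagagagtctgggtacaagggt
Trem2 promoter: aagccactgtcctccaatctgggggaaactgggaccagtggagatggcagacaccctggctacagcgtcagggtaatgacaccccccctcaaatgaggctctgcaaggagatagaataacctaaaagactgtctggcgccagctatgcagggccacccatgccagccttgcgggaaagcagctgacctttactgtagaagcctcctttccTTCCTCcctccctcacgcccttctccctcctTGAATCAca
Positions count back from -1, the last base before the start. The Trem1 window held GAGGAA from position -162, and the Trem2 window held its reverse complement from -40 and TGANTCA from -9, with no overlap between them. The match at -9 has A at the middle base, so it rests on that loosening, and binding of AP-1 was not tested. GAGGAA on either strand was in 23.3% and TGANTCA in 6.75% of the 32851 RefSeq windows of the same length. TATAAA, searched on both strands and present in 12.4% of those windows, was in none of the members' windows. RefSeq windows matched 7 of the 9 genes. That of Ptpn6, chr6:124738710-124738959, lies before its upstream start. The downstream start of Ptpn6-202, the transcript with most of the TPM of Ptpn6, had no window and was not searched. Tyrobp and Lyn had no entry.

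Trem2 was the leading transcript of a list of 15 receptors of the Trem cluster and other, mostly Tyrobp-linked, receptors. It held 79.1% ± 0.704 of their summed TPM (SD, n = 3), Cd300lb 9.73% ± 0.937 and Cd300ld 8.23% ± 0.963. Of the 15, 5 were detected in all libraries, where 40.5% of nuclear protein-coding genes were. Rescaling raises every value, so the same limit of 1 is then less strict. After it 8 passed, with Pilrb1, Sirpb1c and Sirpb1b added. The list median was 0.507 TPM. Over all nuclear protein-coding genes that median was 0.137 TPM. Cd300lb, an activating receptor of the CD300 family, had 43.8, 33.0 and 34.4 TPM in replicates 1, 2 and 3, all below Trem2. Trem2 over Cd300lb gave a log2 ratio of 3.03 ± 0.15. Clec5a, a lectin that signals through Tyrobp, had 7.78, 4.87 and 3.58 TPM. Tyrobp also exceeded the sum of the 15 receptors in each library, with a log2 ratio of 1.03 ± 0.18 (SD, n = 3).

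Among 7 signalling adaptors, 3 were detected: Tyrobp, Fcer1g and Hcst. That count is near the 40.5% of nuclear protein-coding genes detected. Hcst, also called DAP10, carries a motif for phosphoinositide 3-kinase and no ITAM. Tyrobp held 60.1% ± 2.53 of the summed TPM of the 7, Fcer1g 39.1% ± 2.52 and Hcst 0.747% ± 0.0456 (SD, n = 3). The lymphocyte ITAM chains Cd79a, Cd79b, Cd3e and Cd247 had no mean above 0.743 TPM, the value of Cd79b. Fcer1g had 663, 494 and 393 TPM in replicates 1, 2 and 3, each below Tyrobp of the same library, and the log2 ratio of Tyrobp over Fcer1g was 0.62 ± 0.15.

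On a list of ligands and sheddases of Trem2 and of receptors linked to Trem2 or Tyrobp, 7 of 8 genes were detected, with a list median of 67.4 TPM. Apoe, a lipoprotein ligand of Trem2, averaged 1831 ± 205 TPM and Lgals3, a galectin reported as a Trem2 ligand in mouse, 1359 ± 83.1 TPM (SD, n = 3). Csf1r, the growth factor receptor of macrophages, whose signalling uses Tyrobp, averaged 214 ± 41.3 TPM. App, the amyloid precursor protein, averaged 95.6 ± 7.81 TPM. Adam17 and Adam10, proteases that shed the Trem2 ectodomain, averaged 23.3 ± 5.63 and 18.7 ± 2.49 TPM. Clu, an apolipoprotein that Trem2 binds, was the exception at 0.06, 0.04 and 0.02 TPM in replicates 1, 2 and 3.

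Lyn, the SRC family kinase that phosphorylates ITAM tyrosines and, on inhibitory receptors, the corresponding inhibitory motifs, had 46.4, 34.1 and 30.7 TPM in replicates 1, 2 and 3. Replicate 1 was highest in TPM and also after rescaling, at 186 against 155 and 156 rescaled TPM. Fgr, a related kinase known from neutrophils and macrophages, had 0.26, 0.21 and 0.18 TPM, on 42, 109 and 45 counts. The values of the kinases did not overlap, and the log2 ratio of Lyn over Fgr was 7.41 ± 0.07 (SD, n = 3), or 170-fold.

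Lyn made up 62.3% ± 1.48 and Fgr 0.366% ± 0.00994 of the summed TPM of 8 SRC family kinases (SD, n = 3). The 12 kinases and regulators of this family were detected in 7 cases, and the list median was 3.52 TPM. Of the regulators, the phosphatases Ptprc and Ptprj, which remove the inhibitory phosphate of SRC kinases, averaged 47.9 ± 7.23 and 40.5 ± 6.41 TPM, Csk, the kinase that adds it, 41.8 ± 4.27 TPM, and Pag1, the membrane adaptor of Csk, 3.99 ± 0.521 TPM.

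Syk, the kinase that docks on the phosphorylated ITAM, had 68.7, 59.0 and 58.5 TPM in replicates 1, 2 and 3, and was the highest of the enzymes in the set. It ranked 541 among nuclear protein-coding genes. After rescaling the values were 275, 268 and 298, with replicate 3 the highest. Zap70, its T cell relative, had counts of 0, 0 and 2.

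Btk, the TEC family kinase that phosphorylates Plcg2, had 14.6, 12.5 and 10.8 TPM in replicates 1, 2 and 3, below Syk in each library. Btk over Syk gave a log2 ratio of -2.30 ± 0.12 (SD, n = 3). Btk is also a B cell gene, and the B cell markers summed to 1.02, 0.68 and 0.67 TPM. Tec, another kinase of the family, had 16.2, 14.4 and 12.4 TPM. Tec over Btk gave a log2 ratio of 0.18 ± 0.04, so Tec was the higher in each library by a small margin. Btk held 46.7% ± 0.602 and Tec 53.1% ± 0.626 of the summed TPM of 5 TEC kinases, and Bmx and Txk were each at 0.03 TPM or less in every library.

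Plcg2, the phospholipase that cleaves membrane phosphoinositide into the calcium-releasing messenger and diacylglycerol, had 18.2, 15.7 and 12.6 TPM in replicates 1, 2 and 3. Its relative Plcg1, the form known from T cells, had 1.78, 1.65 and 2.02 TPM. Plcg2 over Plcg1 gave a log2 ratio of 3.08 ± 0.38 (SD, n = 3). Of 12 genes for phospholipase C gamma and calcium signalling 11 were detected, with a list median of 8.15 TPM. Ppp3ca, a catalytic chain of calcineurin, averaged 17.6 ± 2.11 TPM, and Nfatc1 and Nfatc2, transcription factors that calcineurin activates, 11.0 ± 1.72 and 9.67 ± 1.00 TPM. The exception was the calcium channel gene Itpr3 at 0.80, 0.77 and 0.78 TPM. It passed the limit after rescaling, which raises every value.

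Ptpn6, the phosphatase, had 45.0, 41.2 and 30.1 TPM in replicates 1, 2 and 3, with replicate 3 lowest also after rescaling, at 180.3, 187 and 153 rescaled TPM. The log2 ratio of Plcg2 over Ptpn6 was -1.32 ± 0.07 (SD, n = 3). Ptpn11, the related phosphatase SHP-2, had 10.5, 9.24 and 8.60 TPM, and the log2 ratio of Ptpn6 over Ptpn11 was 2.02 ± 0.19. All 10 inhibitory phosphatases and adaptors were detected, with a list median of 8.24 TPM. Inpp5d, the lipid phosphatase SHIP1, averaged 41.2 ± 4.66 TPM, and its log2 ratio over Ptpn6 of 0.10 ± 0.14 was within the spread between libraries. Dok1, an adaptor that dampens the same pathway, averaged 15.5 ± 1.48 TPM.

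On a list of receptors with inhibitory motifs and their relatives, 13 of 16 genes were detected, with a list median of 20.6 TPM. Sirpa, the receptor for the CD47 signal, had 493, 423 and 462 TPM in replicates 1, 2 and 3, more than Trem2 in each library. Lilr4b and Lilrb4a, leukocyte immunoglobulin-like receptors of near-identical sequence whose reads the estimate may divide, averaged 126 ± 14.4 and 84.8 ± 7.58 TPM (SD, n = 3), and Fcgr2b, the inhibitory Fc receptor, averaged 124 ± 28.1 TPM. The exceptions were Pilra, Siglece and Pecam1, with means of 0.923, 0.163 and 0.163 TPM.

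The remaining arms of the pathway were detected nearly whole, beside 40.5% of nuclear protein-coding genes. Of 14 scaffolds and exchange factors 13 were detected, with a list median of 14.4 TPM, led by Grb2 at 92.7 ± 17.6, Lat2 at 63.7 ± 6.38, Blnk at 38.1 ± 6.34 and Vav1 at 27.7 ± 3.42 TPM (SD, n = 3). Blnk is an adaptor that links Syk to Plcg2. The exception was Lat, the T cell scaffold, at 0.26, 0.36 and 0.33 TPM, and the log2 ratio of Lat2 over Lat was 7.66 ± 0.32. All 11 genes of the PI3 kinase arm were detected, with a list median of 14.0 TPM. Pik3ap1, an adaptor for PI3 kinase, averaged 88.2 ± 6.24 TPM, Akt1 48.5 ± 4.46, and Pik3r5 31.1 ± 3.86 TPM, and Akt2 had 23.4, 22.2 and 17.5 TPM in replicates 1, 2 and 3. All 6 genes of the Card9 arm, by which Syk reaches NF-kB, were detected, with a list median of 11.2 TPM. Prkcd, the kinase that phosphorylates Card9, averaged 39.4 ± 8.07, Prkcb 18.8 ± 5.96, Bcl10 16.4 ± 3.89 and Card9 6.07 ± 0.798 TPM.

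**Figure D2:**
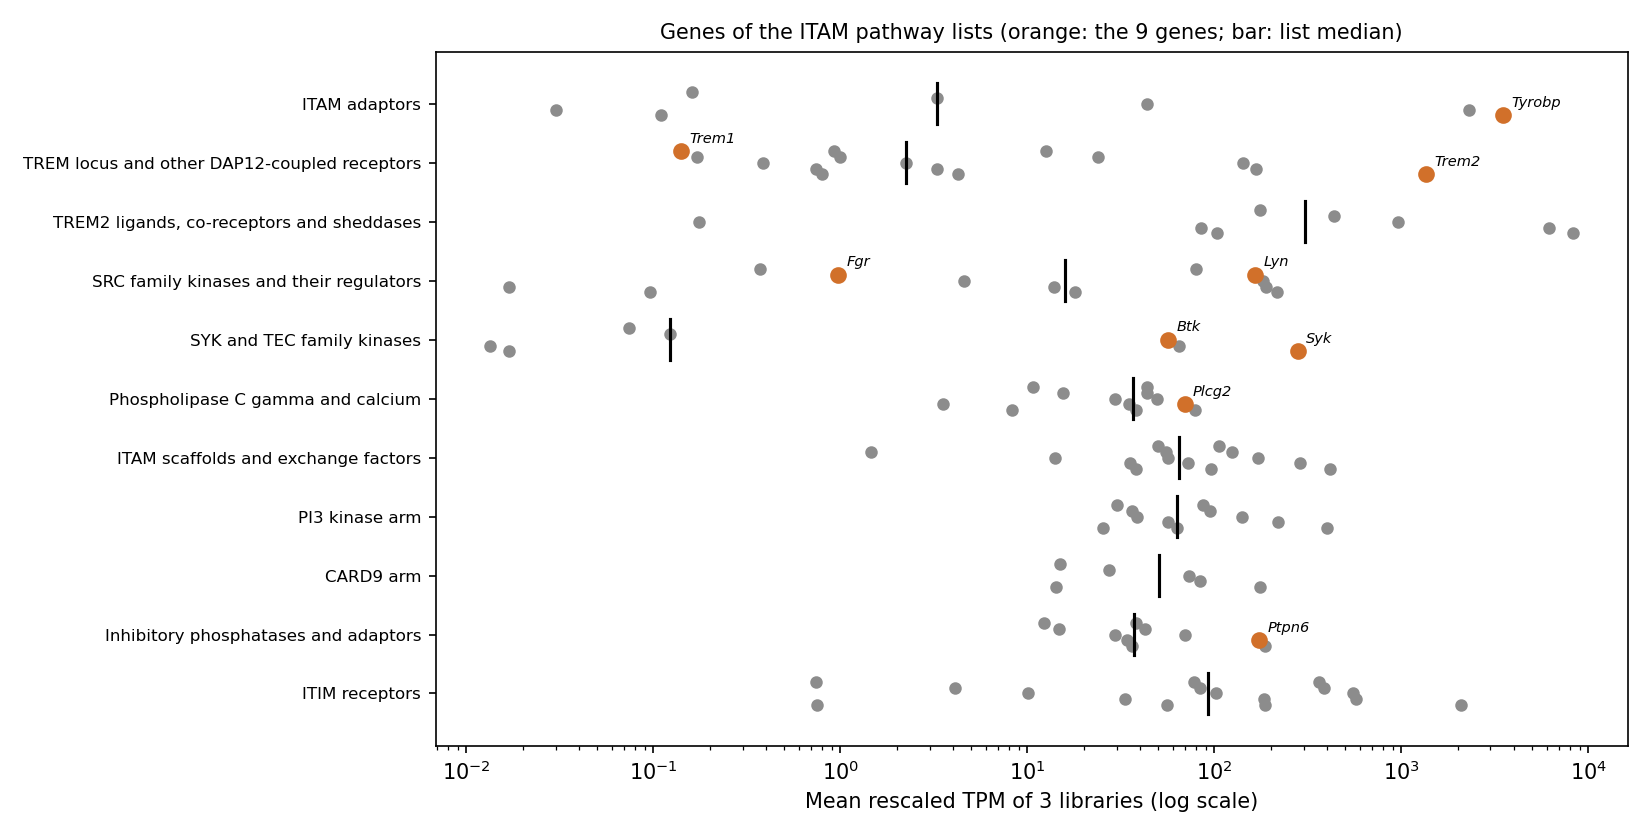
Mean rescaled TPM of 3 libraries, on a log scale, for every gene of the 11 pathway lists. Each point is a gene, orange points are the genes of the set and bars are list medians; vertical offsets within a list only separate the points. Tyrobp and Trem2 are the highest genes of their lists, whereas Trem1 lies among the lowest.

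In the order of mean TPM the genes ran Tyrobp, Trem2, Syk, Ptpn6, Lyn, Plcg2, Btk, Fgr and Trem1. Neighbours were taken as apart where all 3 libraries had the same sign and the mean log2 difference exceeded 2 SD, since 3 libraries cannot give an exact two-sided sign-flip p below 0.25. By that rule 7 of the 8 neighbouring pairs were apart, and 7, 8 and 6 were so without replicate 1, 2 and 3. Trem2 over Syk differed by 2.28 ± 0.07, Syk over Ptpn6 by 0.69 ± 0.23, Lyn over Plcg2 by 1.25 ± 0.12 and Plcg2 over Btk by 0.29 ± 0.06 (log2 ratio, SD, n = 3). Ptpn6 and Lyn did not differ beyond their spread: the log2 ratio of Ptpn6 over Lyn was -0.04, 0.27 and -0.03 in replicates 1, 2 and 3.

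Transcripts of the set also differed in structure, and segments of Trem2 and Syk that set them apart are shown because they change the encoded protein. All are from GENCODE M21 on mm10, plus strand. Capitals mark the segment in 1 transcript of a pair, and the lower-case bases on either side are joined directly in the other.
Trem2-202: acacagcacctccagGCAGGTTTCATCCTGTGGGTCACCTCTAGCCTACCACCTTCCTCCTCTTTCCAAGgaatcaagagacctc
Trem2-201: acacagcacctccaggaatcaagagacctc
Syk-203: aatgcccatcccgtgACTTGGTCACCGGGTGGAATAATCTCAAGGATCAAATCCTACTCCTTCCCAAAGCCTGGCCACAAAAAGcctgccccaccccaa
Syk-202: aatgcccatcccgtgcctgccccaccccaa
The Trem2 segment of 55 bases lies in exon 4 of Trem2-202 at chr17:48351691-48351745. It shifts the reading frame, so that Trem2-202 encodes 249 codons and Trem2-201 227. Lyn-201, of which no sequence is shown, has 63 coding bases more than Lyn-202, which add 21 codons in frame, for 512 codons in Lyn-201 and 491 in Lyn-202, the forms known as LynA and LynB. The Syk segment is exon 7 of Syk-203, 69 bases at chr13:52624708-52624776. It adds 23 codons in frame to the linker before the kinase domain. Syk-203 has 629 codons and Syk-202 has 583, and these transcripts also differ in their last exon. The form of Syk that lacks only the 23 codons is known as SykB, so Syk-202 is not that form.

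**Figure D3:**
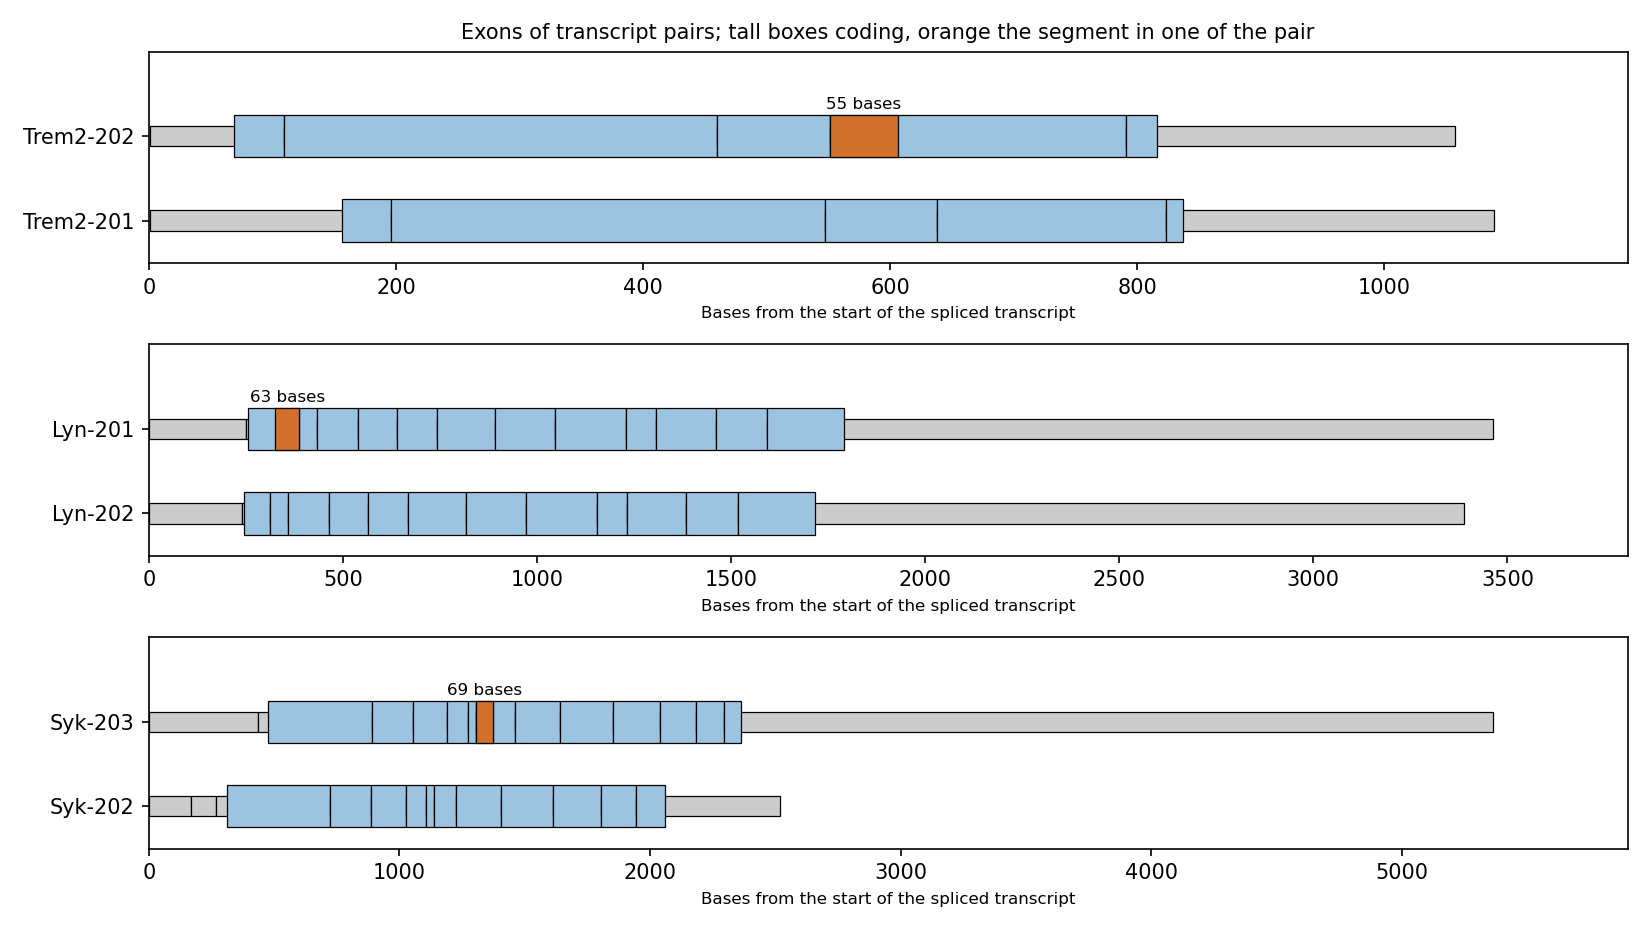
Exons of the transcript pairs of Trem2, Lyn and Syk, drawn to scale in bases from the start of the spliced transcript. Tall boxes are coding, low grey boxes are untranslated, and orange marks the 55, 63 and 69 bases present in 1 transcript of each pair.

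The longer-frame transcript Trem2-202 took 25.2%, 22.1% and 22.4% of the TPM of Trem2 in replicates 1, 2 and 3 in the first transcript table, and 25.9%, 22.0% and 21.7% in the second. The means of 23.2% ± 1.73 and 23.2% ± 2.34 (SD, n = 3) differed by less than the spread between libraries. Trem2-201 took 75.4% ± 1.60 in the first table.

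LynA, the transcript Lyn-201, took 66.2%, 69.0% and 63.8% of the TPM of Lyn in replicates 1, 2 and 3, and LynB, the transcript Lyn-202, 33.5%, 30.5% and 34.2%. The log2 ratio of Lyn-201 over Lyn-202 was 1.02 ± 0.14 (SD, n = 3). In the second table Lyn-201 was at 70.9% ± 2.47, so LynA was the larger part in both tables. Lyn held 7500.3, 18094 and 7658 counts in replicates 1, 2 and 3, and Gm26857, a lincRNA that overlaps it on the opposite strand, held 114, 259 and 327. Whether the libraries kept strand is not stated in the labels, so reads of a gene and its antisense partner cannot be told apart.

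Syk-203 and Syk-201, the protein-coding transcripts of Syk annotated with the 69-base exon, held 95.7% ± 1.60 of its TPM in the first table. In the second they held 94.1% ± 2.09 (SD, n = 3). Syk-202 took 1.89%, 1.87% and 1.98% in replicates 1, 2 and 3 in the first table. It is the only protein-coding transcript of Syk annotated without the exon, and it also ends in a different last exon. Its share is therefore that of 1 annotated transcript and does not measure skipping of the exon alone. The transcripts with the exon start at different places, 13680 bases apart. Syk-203, from the upstream start, took 60.8% ± 4.06 and Syk-201 34.9% ± 4.79 in the first table, against 70.7% ± 4.29 and 23.4% ± 5.29 in the second.

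Ptpn6 starts from a pair of promoters, of which the downstream one is known for its use in blood cells and the upstream one for its use in epithelial cells. The first coding bases are shown because they tell the transcripts of these promoters apart, with the part from exon 1 in capitals, on the minus strand.
Ptpn6-202: ATGGTGAGgtggtttcaccggga
Ptpn6-201: ATGTTGTCCCGCGGgtggtttcaccggga
Exon 1 of Ptpn6-202, at chr6:124732946-124733154, gives 8 coding bases and that of Ptpn6-201, at chr6:124738499-124738625, 14, so the proteins have 595 and 597 codons. Their transcripts start 5471 bases apart. Ptpn6-202, from the downstream exon, took 93.9%, 92.3% and 94.5% of the TPM of Ptpn6 in replicates 1, 2 and 3. The transcripts with the upstream exon, Ptpn6-201 and Ptpn6-203, took 5.92% ± 0.394 in the first table and 5.07% ± 0.505 in the second (SD, n = 3). The second table put Ptpn6-202 at 78.9% ± 5.95, and gave 14.1% ± 6.22 to Ptpn6-204, a retained-intron transcript of 421 bases that had 0.485% ± 0.84 in the first.

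The transcript shares of Tyrobp depended on the table. Tyrobp-202 took 67.7% ± 4.26 and Tyrobp-201 31.8% ± 4.20 in the first table, against 96.2% ± 3.49 and 3.06% ± 3.57 in the second (SD, n = 3). Tyrobp-202 holds all 564 bases of Tyrobp-201 and has 33 more, 28 at the start and 5 at the end, and its coding start is annotated as incomplete. The shares of these transcripts therefore rest on reads over those 33 bases and are given as uncertain, while the rescaled level of the gene was 3519 ± 126 in the first table and 3334 ± 190 in the second. Btk was mainly Btk-201, at 97.8% ± 1.55, and Plcg2 has 1 annotated transcript.

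**Figure D4:**
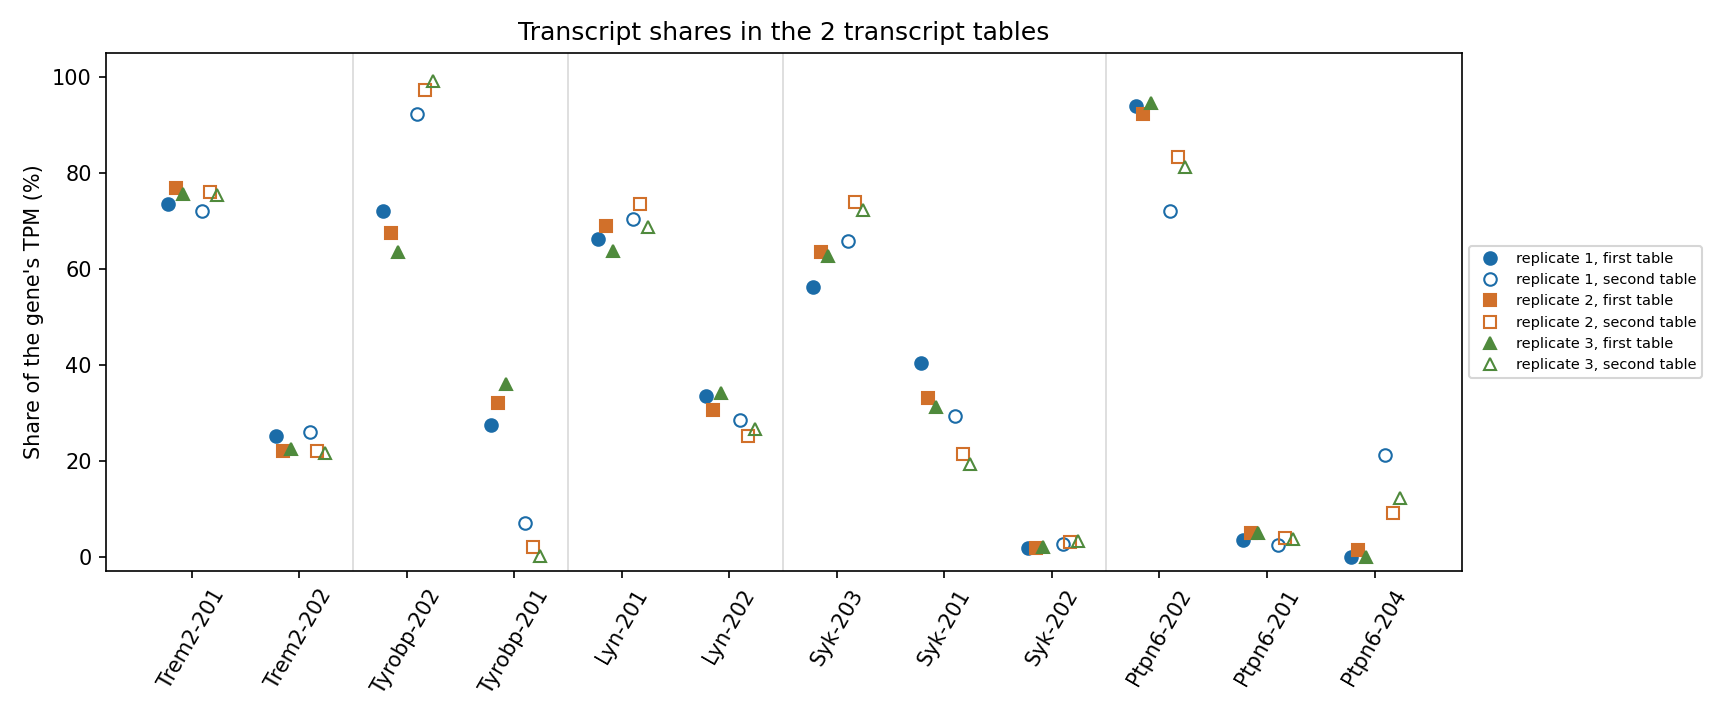
Share of each gene's TPM in its main transcripts, in percent. Filled points are the first transcript table, open points the second, and the 3 symbols are the libraries. The Trem2 shares nearly coincide between tables, whereas Tyrobp-201 is near 32% in the first table and near 3% in the second.

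A gene was taken to use several protein-coding transcripts where 2 or more of them each held at least 20% of its TPM in all libraries. The rule counts transcripts and not proteins. Those of Tyrobp differ at their ends, and Syk-203 and Syk-201 start at different places. Of the 9 genes, 6 had a mean of at least 10 TPM and 2 or more protein-coding transcripts, and 4 of these 6 met the rule in the first table: Trem2, Tyrobp, Lyn and Syk. Over 2587 genes of that kind the share was 27.0%. In the second table Trem2 and Lyn met it, 2 of 6, where the share over the same genes was 26.0%.

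The retained-intron transcripts of Trem2 and Syk were low in TPM and highest in replicate 3, unlike Ptpn6-204, which the first table listed at 0%, 1.45% and 0% in replicates 1, 2 and 3. Trem2-203 took 0.791%, 0.762% and 1.39% of the TPM of Trem2 in replicates 1, 2 and 3. It is 4784 bases long, and of the expected counts of Trem2 it took 4.12%, 3.91% and 6.94%. Syk-204 and Syk-205 together took 1.68%, 1.36% and 4.17% of the TPM of Syk. Malat1 was also highest in replicate 3, and its part in these shares was not tested.

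**Figure D5:**
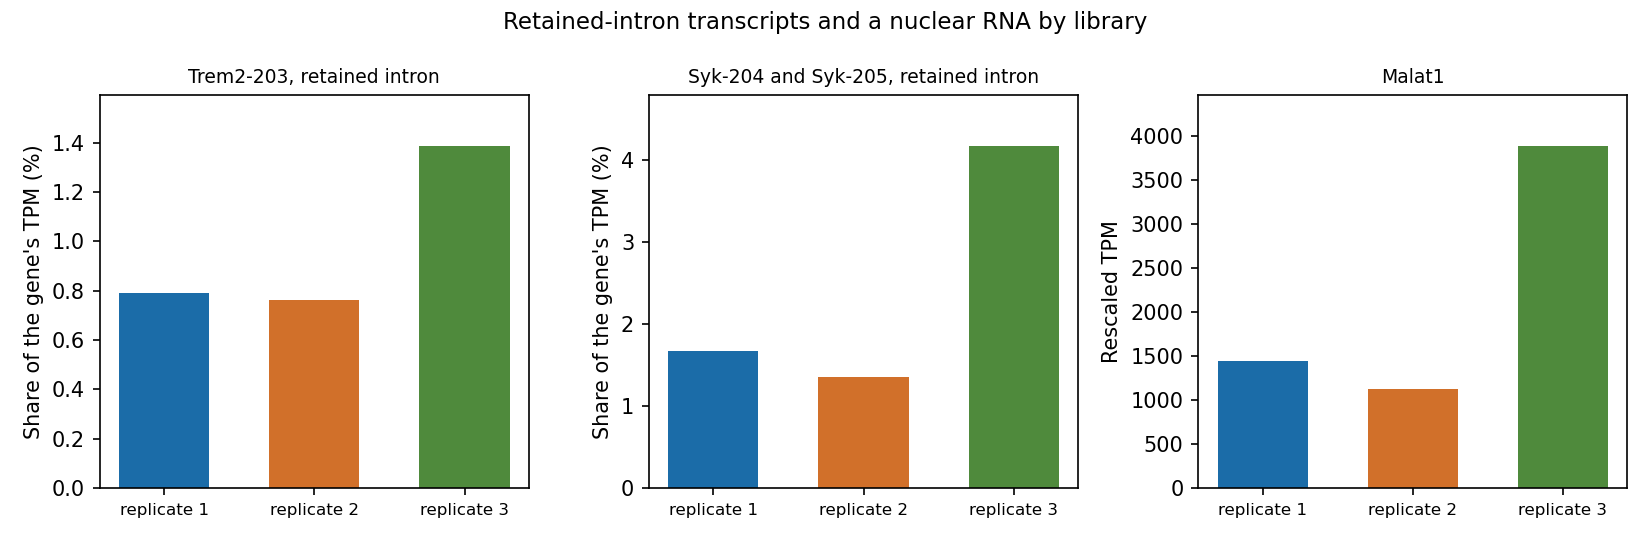
Retained-intron share of Trem2 and of Syk, in percent of the gene's TPM, beside Malat1 in rescaled TPM, as 1 bar per library. Replicate 3 is highest in each panel, at 1.39%, 4.17% and 3884 rescaled TPM.

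Nuclear protein-coding genes took 10.5%, 8.92% and 6.71% of the TPM of the second table in replicates 1, 2 and 3, so the levels of the tables are set side by side only after rescaling. None of the 9 genes had a mean log2 difference, second table over first, beyond 0.5 in either direction, a size reached by 2.96% of 9152 nuclear protein-coding genes. The median of the 7 detected genes was -0.05, and over all those genes it was 0.00. Fgr, on few counts, had the widest difference at 0.49 ± 0.39, and Ptpn6 followed at 0.15 ± 0.10 (SD, n = 3).

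By their median, the 7 detected genes varied more between libraries than other genes in TPM and on scaled counts, and about as much in rescaled TPM. Trem2, at 0.0785, and Syk, at 0.128, were below the median of the other genes in TPM. The SD of log2(TPM + 1) had a median of 0.224 over the 7 detected genes and 0.157 over 9165 nuclear protein-coding genes averaging 1 TPM or more. The difference of these medians, 0.0672, was 0.0327 without replicate 1, 0.119 without replicate 2 and 0.0372 without replicate 3. After rescaling the medians were 0.0956 and 0.0965. The detected genes above the median of the other genes numbered 5 of 7 in TPM and 3 of 7 after rescaling. On counts, the tagwise biological coefficient of variation from edgeR was 0.0789 for Btk, 0.0922 for Plcg2, 0.0955 for Tyrobp, 0.0957 for Syk, 0.105 for Ptpn6, 0.110 for Lyn and 0.112 for Trem2. The median over 9159 nuclear protein-coding genes was 0.0924. Fgr had 0.204, and Trem1 did not pass the filter on low counts.

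The nuclear protein-coding genes whose rescaled levels lay nearest to those of Trem2 over the 3 libraries were Pld3 and Ctsa, which encode lysosomal enzymes, and Myl6, a myosin light chain, at Euclidean distances of 0.113, 0.132 and 0.191 in log2(rescaled TPM + 0.1). For Tyrobp they were the ribosomal protein gene Rps29 at 0.112, Itm2b at 0.167 and the ribosomal protein gene Rplp1 at 0.272. Pld3 had 1298, 1385 and 1571 rescaled TPM in replicates 1, 2 and 3, so it was highest in replicate 3, as Trem2 was. Likeness over 3 libraries of 1 condition describes the level and little else.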

How the data were processed

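Every library has 1 gene table and 2 transcript tables. Per the file headers and notes, the authors derived the gene and first transcript tables from alignments to the transcriptome, and the other transcript table directly from the reads, on mm10 with GENCODE M21 and with tools and versions not given in the sources used here. Expected counts, as deposited, are estimates of reads and can be fractional. TPM values, as deposited, have 1 fixed sum per library, and FPKM values, as deposited, are fragments per kilobase at a common depth. The deposited percent column gives each transcript's share of its gene; shares here were computed from TPM. The deposited bounds of a TPM interval, taken as a signal of unstated level, were not used.

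Rows that name no gene (26345, holding 0.402%, 0.108% and 0.122% of counts in replicates 1, 2 and 3) stayed out of gene totals and tests. The 9 genes and the 11 pathway and 8 marker lists (153 symbols) were chosen with earlier results of these data known. Named were the 9 genes, the 4 highest genes of each list, exceptions to a count of 4 or fewer, and the 3 genes nearest to Trem2 and Tyrobp; other names (Plcg1, Adam10, Adam17, Pag1, Pilrb1, Sirpb1b, Sirpb1c, Malat1 and Gm26857 among them) were chosen after their values were seen. Ratios were taken within a library. Replicate SDs measure the spread between samples that share a donor label, part of which may be technical. Expected counts were rounded for the coefficient of variation, filtered with filterByExpr and given to estimateDisp of edgeR 4.0.16 (R 4.3.3) with TMM factors of 1.03, 1.01 and 0.959, on 12430 genes, a step tested on simulated data. DESeq2 1.42.0 size factors, FPKM, posterior mean TPM, other limits and pseudocounts, the second table and each library left out were alternatives. With 1 condition no comparison between groups was possible. Tables were handled with pandas 2.3.3 and numpy 2.4.6 in Python 3.11.15. Some genes that the naming rule covers, and 1 sequence, are not reported here.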

Additional observations from a re-analysis of the deposited data

How the results depend on the processing

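No paired analysis was possible because the libraries form 1 group. Of 149 alternative values for 25 results, 134 moved by less than the spread between libraries or, for counts of genes or pairs, by at most 1.5 times. All 72 that left out 1 library were among them. For ratios and shares that outcome was fixed in advance, because leaving out 1 of 3 libraries cannot move a mean by a full SD. The median spread of the detected genes was judged against the SD of that spread among them. The rest were these, and their causes were not tested unless stated. Rescaling gave 8 detected receptors of the Trem cluster list in place of 5, since it raises every value while the limit stayed at 1. The log2 ratio of Trem1 over Trem2 was -11.18 with a pseudocount of 0.1 and -8.19 with 1, since a pseudocount bounds a level near 0. That of Lyn over Fgr was 6.92 in the second table, 6.79 with posterior mean TPM, 6.86 with a pseudocount of 0.1 and 4.95 with 1. That of Plcg2 over Ptpn6 was -1.52 in the second table and -1.64 with posterior mean TPM, where Ptpn6-205, a transcript of 134 bases with 0 counts, received 11.9, 3.52 and 7.24 TPM in replicates 1, 2 and 3. The median spread of the detected genes minus that of other genes was 0.0672, reversed to -0.00093 after rescaling, and was 0.184 with no filter on the other genes. The second table gave 3.06% for Tyrobp-201, 70.9% for Lyn-201, 70.7% for Syk-203 and 78.9% for Ptpn6-202. Without replicate 2, Lyn ranked above Ptpn6. Depth limits Trem1 and, less, Fgr.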
